A study of Homo sapiens with 16 samples.

Results

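YWHAZ, CSNK1E, NUCKS1, KPNA4, TMED2, TMCO1 and C6orf62 are 7 of the 20046 named genes on the arrays, and their mRNAs were measured in RNA pulled down with HuR or with control IgG. They were chosen from earlier results of these same arrays, as mRNAs seen in HuR immunoprecipitates (IPs) of control cells and lower after an siRNA against MIR100HG. The HuR differences below are therefore descriptions. Their p-values are left out, and how many members lay past the threshold, which the choice of genes largely fixed, is given only to show how such calls move with the processing. The genes were matched by platform gene symbol, and all 7 were found, on 13 probes. For each gene 1 probe passed a filter on dim signal (detected at p below 0.01 in 4 or more of the 16 arrays). It passed through the HuR arrays, where it is bright, so it had to differ between the IPs.

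The cells were U2OS, a human osteosarcoma line, synchronized in the cell cycle by a nocodazole or a double thymidine procedure. Which phase each sample was taken in is not stated in its labels. They received for 48 hours either a control siRNA or an siRNA that the titles name miR-100HG and the protocol places in exon 4 of "mIR-110HG". Lysates were precipitated with IgG or with an antibody against HuR, which gives 4 groups (IgG IP and HuR IP, each with control and with MIR100HG siRNA) of 4 biological replicates, 1 array each. No input RNA is among the 16 samples, so a change in the amount of an mRNA in the cells and a change in its recovery with HuR cannot be told apart.

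HuR, the protein of ELAVL1, binds U-rich and AU-rich stretches of mRNAs, mostly in 3' untranslated regions, and is known for stabilising them and promoting their translation. MIR100HG is a long noncoding RNA that also hosts microRNAs, and the series title names its question, whether this RNA modulates the binding of HuR to its targets. The 7 mRNAs encode proteins of unlike function: a 14-3-3 adaptor, a protein kinase, a chromatin protein, a nuclear import receptor, a cargo receptor of the secretory pathway, an ER membrane protein and a protein with no well described role.

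Most probes were at background on every array. The median intensity was 42 to 50, and arrays detected 553 to 2592 of the 47231 probes at p under 0.01. The median was 48 to 50 on the HuR arrays with MIR100HG siRNA and 42 to 47 on the IgG arrays. Raw intensities of these groups therefore do not start from an equal background. Set apart from the rest was HuR replicate 2 with MIR100HG siRNA, where 2592 probes were detected and the brightest reached 6370. Replicates 1, 3 and 4 of that group detected 563 to 824 probes, and their brightest reached 314 to 334. Results that rest on it are given with and without it. Neither MIR100HG nor ELAVL1 was detected at p under 0.05 on any of the 16 arrays (lowest detection p 0.0688 and 0.117), so the siRNA could not be checked. Of 12 markers of mesenchymal or osteosarcoma cells 3 were detected at p under 0.01 on any array, as were 1 of 5 epithelial and 0 of 5 blood markers, so the cell type could not be checked from these pulled-down RNAs either.

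The pattern of the 7 mRNAs was simple. All were bright on the 4 HuR arrays with control siRNA and at background on nearly all 8 IgG arrays. With MIR100HG siRNA they were at or near background on 3 of the 4 HuR arrays and bright on replicate 2. The description of these mRNAs as lost on siRNA therefore held for replicates 1, 3 and 4 and went against the data of replicate 2.

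The 2 signalling genes come first. YWHAZ encodes 14-3-3 zeta, an adaptor that binds phosphorylated proteins. In HuR IPs with control siRNA its probe ILMN_1801928 read intensities of 101, 107, 159 and 75 on replicates 1 to 4. With MIR100HG siRNA it read 47, 207, 48 and 41. Replicate 2 was above every control array, and the other 3 lay within the IgG range of 38 to 49. CSNK1E encodes casein kinase 1 epsilon, a serine/threonine kinase of the circadian clock and of Wnt signalling. Its probe ILMN_2415235 read 124, 127, 133 and 79 with control siRNA. With MIR100HG siRNA it read 52, 412, 58 and 55. The 3 low arrays were just above the IgG values of 40 to 51, and 1 of them, replicate 3, was detected at p under 0.05.

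NUCKS1, a chromatin-associated phosphoprotein with a role in homologous recombination, and KPNA4, the importin alpha 3 receptor that carries proteins with a nuclear localisation signal into the nucleus, act in or at the nucleus. The NUCKS1 probe ILMN_1869109 read 124, 158, 125 and 89 in HuR IPs with control siRNA. It read 60, 350, 53 and 50 with MIR100HG siRNA, where replicate 1 was detected at p under 0.05. All 8 IgG arrays lay between 40 and 49, below each HuR array in raw intensity. Replicates 3 and 4 with MIR100HG siRNA were nevertheless not detected (detection p 0.173 and 0.339). KPNA4 (ILMN_1664756) read 99, 125, 116 and 70 with control siRNA. It read 51, 360, 55 and 45 with MIR100HG siRNA, against 36 to 46 on the IgG arrays. Replicate 4 overlapped the IgG arrays, and replicates 1 and 3 were above them but not detected.

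TMED2, a p24 family cargo receptor of vesicles between the ER and the Golgi apparatus, and TMCO1, an ER membrane protein described both as a calcium channel and as part of a translocon for multipass membrane proteins, belong to the early secretory pathway. TMED2 (ILMN_1654939) read 130, 162, 175 and 71 in HuR IPs with control siRNA. It read 51, 241, 57 and 46 with MIR100HG siRNA, and 39 to 47 on the IgG arrays. Among the low arrays replicate 3 was detected at p under 0.05 and replicate 4 overlapped the IgG values. TMCO1 (ILMN_1793829) read 128, 147, 163 and 91 with control siRNA and 63, 435, 55 and 51 with MIR100HG siRNA. It was the 1 member seen with IgG, at 61 on replicate 1 with control siRNA (detection p 0.0039) and at 52 on replicate 1 with MIR100HG siRNA (0.0312), where all 8 IgG arrays ran from 42 to 61. Of its low HuR arrays, replicates 3 and 4 lay within that range and replicate 1, detected at p under 0.05, just above it.

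C6orf62 encodes a protein whose function is not well described. Its probe ILMN_1653797 was the dimmest on replicate 2 relative to its own control arrays. It read 83, 116, 94 and 65 in HuR IPs with control siRNA and 50, 112, 49 and 42 with MIR100HG siRNA, against 41 to 47 with IgG. Replicate 2 thus lay inside the range of the control arrays, unlike for the other 6 mRNAs. Replicate 4 overlapped the IgG values, and replicates 1 and 3 were not detected.

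**Figure D1:**
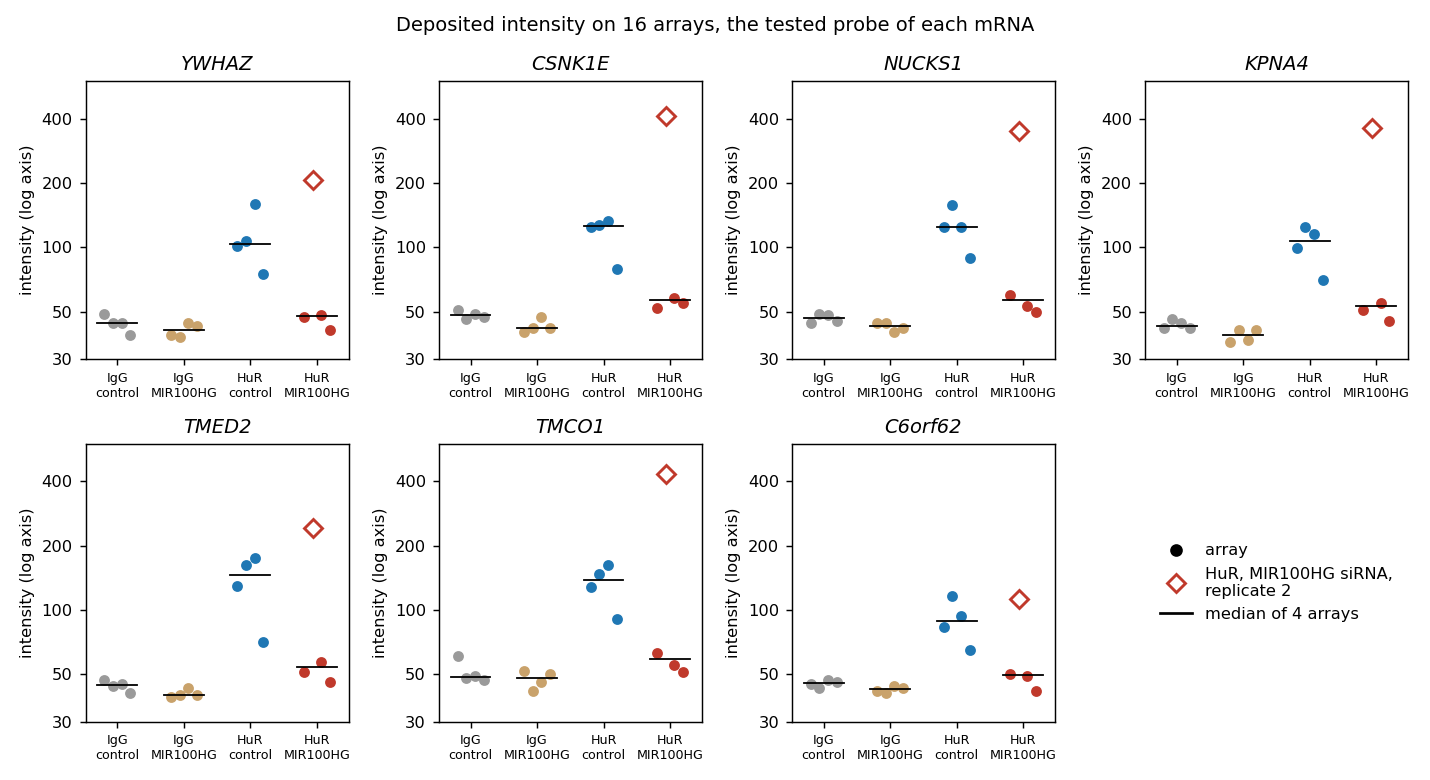
Deposited intensity (log axis) of the tested probe of each mRNA on the 16 arrays, by IP and siRNA, with a line at the median of each group of 4. HuR replicate 2 with MIR100HG siRNA is drawn as an open diamond: it reached 207 to 435 for 6 mRNAs and 112 for C6orf62, while the other 3 arrays of that group read 41 to 63.

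Within the control HuR arrays the 7 mRNAs shared their lowest replicate but not their highest. The coefficient of variation ran from 21.4% (CSNK1E) to 34.5% (TMED2). Replicate 4 was lowest for all 7, and it was also lowest for 70.8% of the 414 probes detected on all 4 of these arrays. The members thus shared this with most probes detected there, whether or not IgG arrays detected them too. Replicate 3 was highest for YWHAZ, CSNK1E, TMED2 and TMCO1, and replicate 2 for NUCKS1, KPNA4 and C6orf62.

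The other 6 probes of these genes stayed dim. YWHAZ ILMN_1669286, NUCKS1 ILMN_1680692 and C6orf62 ILMN_2168866 were detected at p under 0.05 on none of 16 arrays, with highest intensities of 50, 47 and 48. The same held for CSNK1E ILMN_1808913, with a highest intensity of 51. CSNK1E ILMN_1708858 was detected on 1 array, HuR replicate 2 with MIR100HG siRNA, at 73. NUCKS1 ILMN_3251404 was detected there too, at 64, and at 55 on HuR replicate 2 with control siRNA (detection p 0.0364). KPNA4, TMED2 and TMCO1 have 1 probe each. The recovery of YWHAZ, CSNK1E, NUCKS1 and C6orf62 with HuR thus rests on 1 probe of several. In the platform annotation the dim probes of YWHAZ and C6orf62 carry the same RefSeq accession as the bright ones. The bright CSNK1E probe and the dim ILMN_1708858 share NM_152221, while ILMN_1808913 carries NM_001894. The bright NUCKS1 probe carries the cDNA accession AK095855 and both dim ones NM_022731. Where each probe lies in its transcript is not analysed here.

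**Figure D2:**
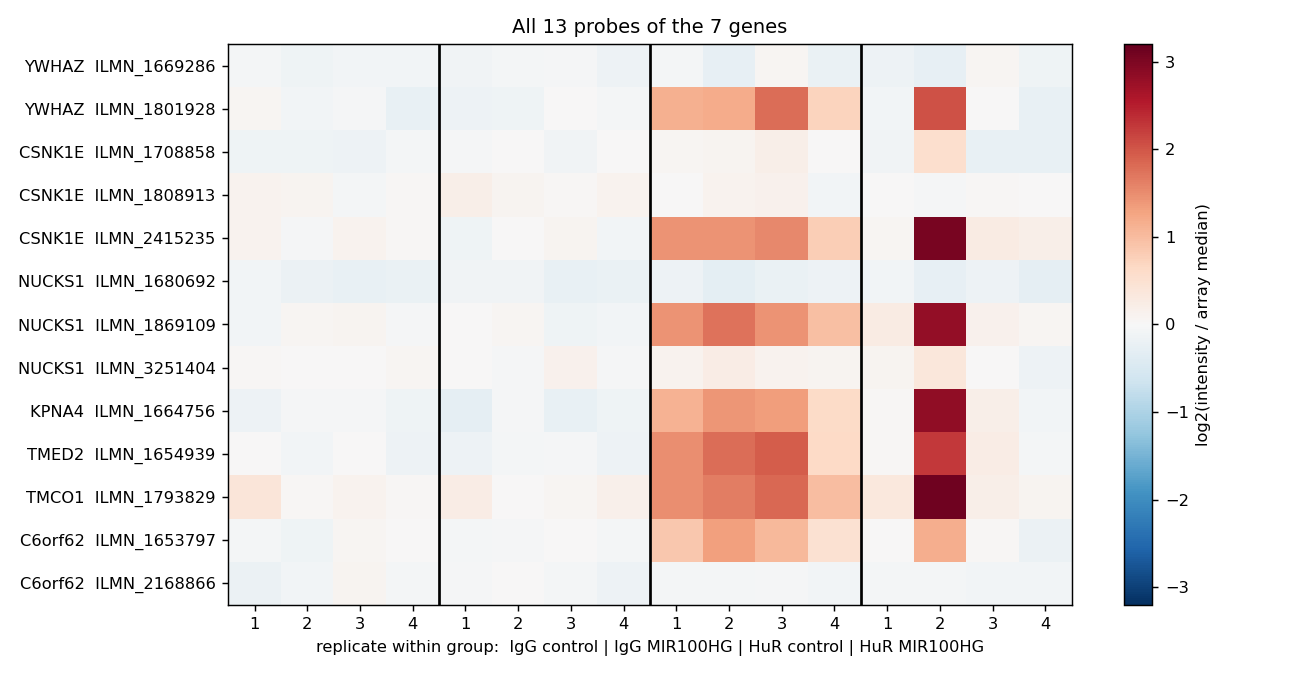
Log2 of intensity over the median intensity of the array, for all 13 probes of the 7 genes (rows) on the 16 arrays (columns, by group and replicate). Red is above and blue below the array median; 1 probe of each gene is red on the 4 control HuR arrays and on replicate 2 with MIR100HG siRNA, and the other 6 probes are pale throughout, apart from a light red for CSNK1E ILMN_1708858 and NUCKS1 ILMN_3251404 on that replicate.

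With control siRNA the fitted difference between HuR and IgG IPs, on a log2 scale after background correction and quantile normalization, ran from 1.35 ± 0.17 (SE, 4 arrays against 4) for C6orf62 to 2.03 ± 0.25 for TMED2. It was 0.987 to 1.5 when HuR replicate 2 with MIR100HG siRNA was left out before normalization, and 0.55 to 0.82 without background correction. For the 6 mRNAs not detected at p under 0.05 on any control IgG array the size is given as a lower bound, with the dim arrays raised to the lowest signal of a detected probe. With all 16 arrays normalized in this way TMED2 was at least 2.81-fold, NUCKS1 at least 2.76-fold, CSNK1E at least 2.58-fold, YWHAZ at least 2.32-fold, KPNA4 at least 2.21-fold and C6orf62 at least 1.79-fold higher with HuR. The bounds hold for that normalization: they were 1.46 to 2.06 without that array, 1.21 to 1.43 without background correction, and 2.24 to 3.77 without scaling. TMCO1, detected on 1 of 4 control IgG arrays, differed by 1.81 ± 0.31. No HuR array with control siRNA overlapped an IgG array for any of the 7. All 7 were past the threshold (limma adjusted over all features), where 21.1% of the 1387 features tested were called as higher. The median difference was 1.81 for the members and -0.05 for all features tested. None of the 7 was past it when arrays were centred on their medians or left unscaled, where 0.721% of features were called with either scaling, although the differences were then 1.57 to 2.34 and 1.58 to 2.35. Without HuR replicate 2 with MIR100HG siRNA, which belongs to neither group compared but enters the shared spread and the quantile normalization, all 7 passed with quantile normalization (19.7% of 1149 features called), median centring (25.3%) and no scaling (25.7%).

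At background on all 8 IgG arrays (no detection at p under 0.05) were 21.3% of the 414 probes that all 4 control HuR arrays detected, and 6 of the 7 members, TMCO1 being the exception. That pattern is part of what chose them.

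With MIR100HG siRNA the fitted HuR minus IgG difference ran from 0.18 ± 0.17 (C6orf62) to 0.62 ± 0.28 (CSNK1E). None of the 7 was past the threshold, where 3.10% of features were called as higher, and 2 of the 7 had an unadjusted limma p under 0.05 in that direction, as had 8.80% of features. No fold is given, since the lower bound moved across 1 with the scaling and with replicate 2. With quantile normalization of all 16 arrays it was under 1 for 5 of the 6 mRNAs not detected with IgG, and 1.02 for CSNK1E. Over the same arrays it was 1.1 (C6orf62) to 1.84 (CSNK1E) unscaled and 1.06 to 1.78 with median centring. Without replicate 2 it was at most 0.822 with quantile normalization, 0.902 unscaled and 0.875 with median centring. Without replicate 2 the differences fell to between 0.0027 (C6orf62) and 0.20 (CSNK1E), and again none passed. With all 16 arrays and no scaling the members' median was 1.18 in place of 0.54, and with median centring 1.13, with none called, while the median of all features was 0.27 and 0.22 in place of 0.076.

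In HuR IPs the fitted difference between MIR100HG and control siRNA was -1.60 ± 0.25 (SE, 4 arrays against 4) for TMED2, -1.45 ± 0.24 for YWHAZ and -1.41 ± 0.26 for NUCKS1. It was -1.35 ± 0.31 for TMCO1, -1.26 ± 0.28 for CSNK1E, -1.19 ± 0.17 for C6orf62 and -1.18 ± 0.28 for KPNA4. The neighbours in this order differed by less than their errors. All 7 were past the threshold, which the choice of the genes had fixed, where 9.23% of the 1387 features were called as lower. Without background correction the differences were -0.599 to -0.442. This comparison shares the control HuR arrays with the first one. The median was -1.35 for the members and -0.0022 for all features. KPNA4 was not past the threshold without replicate 2 of the control HuR IPs (-1.09), or without HuR replicate 1 (-1.06), 3 (-1.11) or 4 (-1.03) with MIR100HG siRNA.

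How replicate 2 enters this difference depends on the scaling. On replicate 2 the intensity of TMCO1 was 3.29 times its control HuR mean, and that of CSNK1E, KPNA4, NUCKS1, YWHAZ, TMED2 and C6orf62 was 3.56, 3.51, 2.82, 1.87, 1.79 and 1.25 times theirs. Quantile normalization forces 1 common distribution on all arrays, and the 2592 detected probes of replicate 2 were drawn down with it. TMCO1, for instance, stood at 8.64 on the log2 scale there before scaling and at 6.14 after it, below its control HuR mean of 6.28. YWHAZ went from 7.42 to 5.42 and C6orf62 from 6.26 to 4.92, against control means of 5.94 and 5.57. With 16 arrays and no scaling the 7 differences were between -1.36 (TMED2) and -0.76 (KPNA4), with standard errors of 0.39 to 0.72, and none passed, where 0.288% of features were called as lower. With median centring they were between -1.38 and -0.79, and none passed (1.23%). Without replicate 2 all 7 passed with each scaling, at -1.38 to -0.997 with quantile normalization, -2.21 to -1.58 with median centring and -2.19 to -1.55 unscaled, where 23.3%, 34.5% and 33.8% of 1149 features were called as lower.

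**Figure D3:**
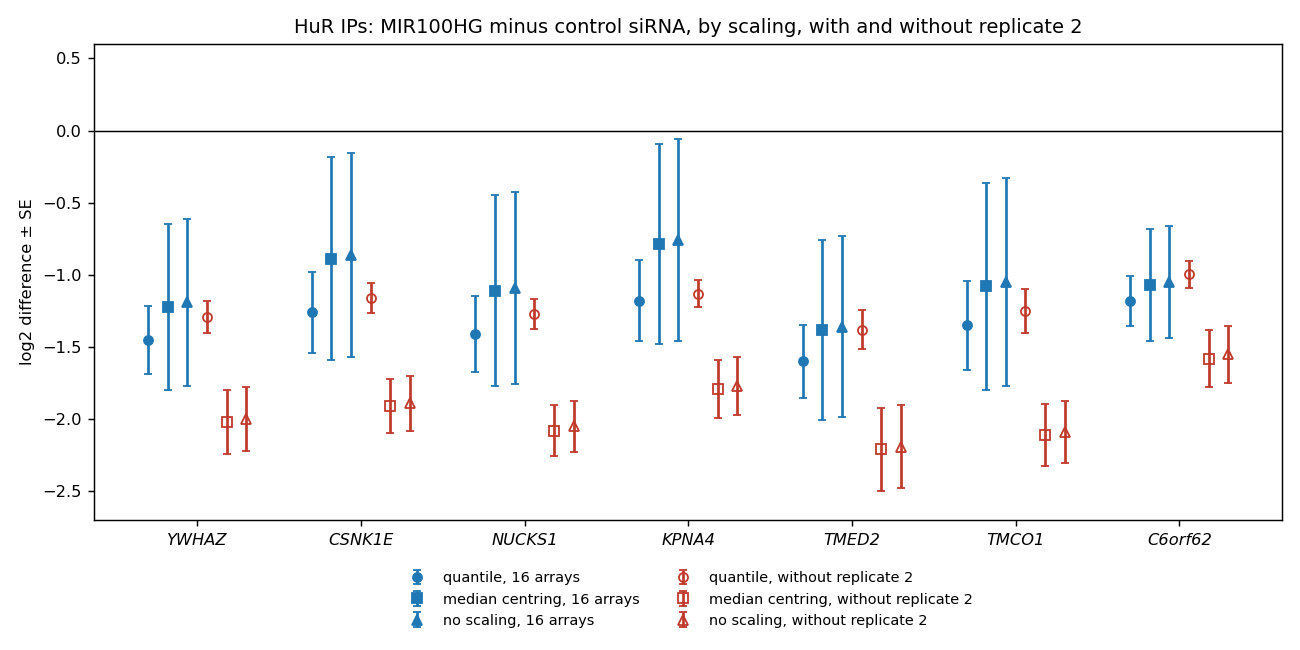
Log2 difference (± SE) between MIR100HG and control siRNA in HuR IPs for each mRNA, with 3 scalings (circle quantile, square median centring, triangle none), over all 16 arrays (blue, filled) and without HuR replicate 2 with MIR100HG siRNA (red, open). All values are below 0; the error bars are widest for median centring and no scaling with all arrays, and the lowest values come from the same scalings without replicate 2.

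The members were set beside the 414 probes that all 4 control HuR arrays detected at p under 0.01. On replicates 1, 3 and 4 with MIR100HG siRNA 55.1% of these probes were detected at p under 0.01 on none of the 3 arrays, as were all 7 members. On replicate 2, 97.1% of them were detected, with all 7 members, and 86.0% were brighter than on any control HuR array, with 6 of the 7. The mean of replicates 1, 3 and 4 was below the control HuR mean by a median of -1.11 on the unscaled log2 scale over the 414 probes. It was between -2.19 (TMED2) and -1.55 (C6orf62) for the members, of which TMED2 was lower than all but 8.70% of the 414 and C6orf62 than all but 25.8%. On replicate 2 the median was 1.66 above the control mean, and the members lay between 0.48 (C6orf62) and 2.27 (KPNA4), below and above it. The members were thus among the lower values on 3 arrays, which is what chose them, and on replicate 2 they had between 25.1% and 70.3% of the probes below them.

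**Figure D4:**
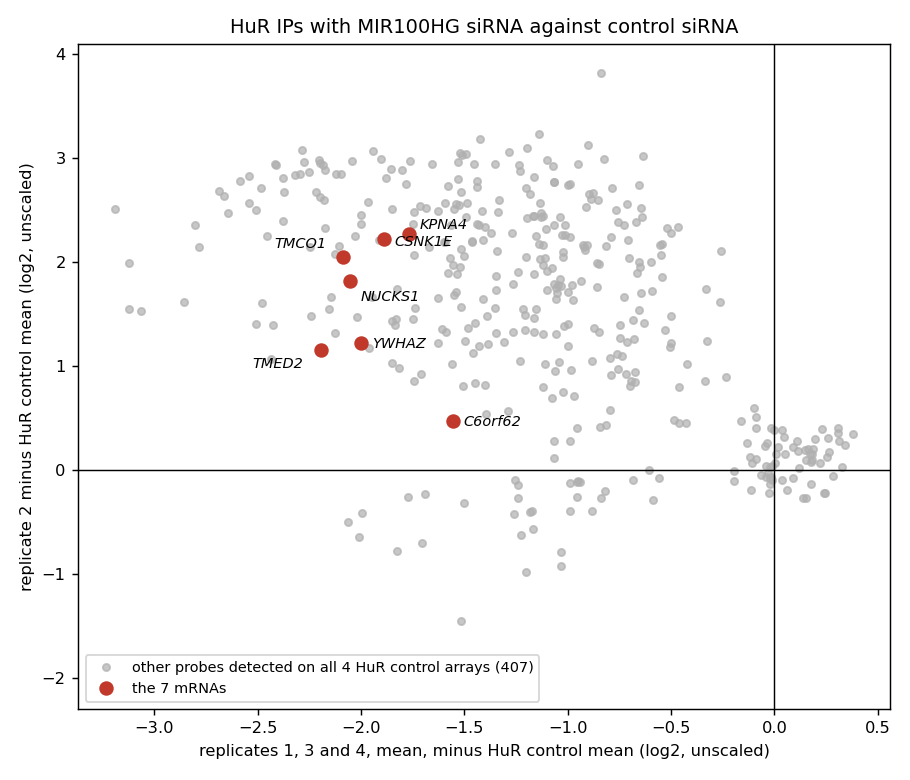
Each point is a probe detected on all 4 control HuR arrays, with the 7 mRNAs in red. The x axis is the mean of HuR replicates 1, 3 and 4 with MIR100HG siRNA minus the control HuR mean and the y axis replicate 2 minus that mean, both as unscaled log2 differences; the members lie at -2.19 to -1.55 on x and at 0.48 to 2.27 on y.

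The change of the HuR minus IgG difference between the siRNAs was below 0 for all 7, from -1.57 ± 0.36 for TMED2 to -1.15 ± 0.40 for KPNA4. C6orf62 (-1.17 ± 0.24) was the 1 member past the threshold, where 0.216% of features were called as lower. All 7 had an unadjusted limma p under 0.05 and a lower value, as had 7.71% of features. The choice of the genes had largely fixed that count. Without background correction the 7 values were -0.579 to -0.371, with none past the threshold. C6orf62 was the member with the smallest standard error. The call did not hold in 14 of the 16 fits that left out 1 array, with values from -1.23 to -1.04. The exceptions were the fit without replicate 4 of the control HuR IPs (0.222% of features called), in which TMED2 (-1.78) passed as well, and the fit without HuR replicate 2 with MIR100HG siRNA. In the latter all 7 were past the threshold, at -1.36 to -0.99, with 10.1% of 1149 features called as lower. With that array left out all 7 also passed with median centring (21.5% called) and without scaling (21.0%). With all arrays none passed with either scaling, and no feature was called as lower with either. When arrays were weighted by their agreement within groups, replicate 2 received the lowest weight, 0.146, and all 7 passed (10.2%).

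Between the siRNAs in IgG IPs, the 1 comparison that holds no HuR array, none of the 7 passed (limma, unadjusted p between 0.781 and 0.944, adjusted p = 1 for all), where 5.77% of features were called in either direction. All but TMCO1 were undetected in both IgG groups, so for those 6 the test could hardly show a difference and no size is given. TMCO1, detected on 1 of 4 arrays in each, differed by -0.087 ± 0.31 (SE, adjusted p = 1 in limma), and by 0.095 without replicate 1 of the IgG IPs with control siRNA. The members' median, with 6 of the 7 at background, was -0.026 and that of all features -0.021.

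Relatives of the 7 genes were mostly dim, as were most genes on these arrays: 825 of the 20046 named genes passed the filter. The 7 were chosen as bright with HuR, so a contrast with their relatives is no result about these families. Of the other 6 genes of the 14-3-3 family 4 were detected at p under 0.01 on any array, but none passed the filter. YWHAG and YWHAH, which encode the gamma and eta proteins, were detected on 2 of 4 control HuR arrays each. YWHAG read 58.5 ± 11.7 (SD, n = 4) there and 46.8 ± 2.5 with control IgG, and on replicate 2 with MIR100HG siRNA it reached 130 against 48 to 53 on the other 3 arrays. Of the other 5 casein kinase 1 genes 4 were on the array and 1 was detected on any array.

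Of 22 other genes of the nuclear transport list 5 were detected on any array and 2, KPNB1 and RANBP1, passed the filter. Both were called as higher with HuR in control cells, where 21.1% of the 1387 features were called. KPNB1 passed the filter through HuR arrays alone, and for RANBP1 the HuR arrays would have been enough. These calls as higher were therefore largely built in, and their p-values are left out. KPNB1, the importin beta that pairs with importin alpha proteins such as KPNA4, read 136 ± 37.2 (SD, n = 4) with HuR and 49.5 ± 5.45 with IgG, a log2 difference of 1.97. Unlike KPNA4, its probe was detected (p under 0.01) by 3 of 4 HuR arrays with MIR100HG siRNA, at 57 to 80 on replicates 1, 3 and 4 and 805 on replicate 2. Its siRNA difference in HuR IPs was -0.43 (limma adjusted p = 0.461), against -1.18 for KPNA4, and whether these differ was not tested. Both values include replicate 2 after quantile normalization. On the unscaled log2 scale KPNB1 lay at -1.655 from its control HuR mean on replicates 1, 3 and 4, and KPNA4 at -1.768. On replicate 2 they lay at 2.944 and 2.268. RANBP1, a cofactor of the Ran GTPase, was higher with HuR by 1.08, with 2 of 4 control IgG arrays detecting it. Its siRNA difference in HuR IPs was -0.76 (limma adjusted p = 0.0443), which also includes replicate 2 after quantile normalization. RANBP1 read 51 to 65 on replicates 1, 3 and 4 and 270 on replicate 2, against a control HuR mean of 98.75. On the unscaled log2 scale it lay at -1.345 and 1.867 from its control HuR mean. Whether its call as lower holds without replicate 2 or with another scaling was not tested. RAN itself was detected on 2 of 4 control IgG arrays and 1 of 4 control HuR arrays and did not pass the filter.

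In the early secretory pathway list 8 of 33 other genes were detected on any array and 3 were tested. TMED7 is a p24 protein like TMED2, and SAR1A a GTPase of COPII coat assembly. They were the 2 called as higher with HuR in control cells, by 0.61 and 0.62, where 21.1% of the 1387 features were called. Both were undetected at p under 0.01 on the IgG arrays and passed the filter through HuR arrays alone. Their calls as higher were therefore largely built in, and those p-values are left out. Neither was called in the siRNA comparison within HuR IPs, where they differed by -0.38 and -0.46 (limma adjusted p = 0.202 and 0.131). On replicate 2 TMED7 read 148 and SAR1A 137, against 42 to 58 and 51 to 55 on the other 3 arrays. SEC24B, a COPII coat subunit and the third one tested, differed by 0.10 between the IPs of control cells (limma adjusted p = 0.816), and read 60 on replicate 2 against 54 to 61 on the other 3. ARCN1, a COPI coat subunit, was detected on 2 of 4 control HuR arrays and no control IgG array, and did not pass the filter. In the ER translocon list 3 of 9 other genes were detected on any array and none passed the filter; SEC61B, a subunit of the protein-conducting channel, was detected on 2 of 4 control IgG arrays and on no control HuR array. Among 5 other homologous recombination genes 1 was detected on any array and none was tested.

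The tested genes most like the members, by the Pearson correlation of normalized log2 intensity over 16 arrays with the members' mean profile, were C5orf15, DPYSL2, ZNF549, UHRF1 and TMX1, each at 0.99. Over 15 arrays, without HuR replicate 2 with MIR100HG siRNA, they were CCNI, PCBP1, RCC2, TMX1 and PRXL2A, also at 0.99. The 2 lists shared 1 gene, TMX1, an ER membrane thioredoxin-related protein, which read 87.3 with HuR in control cells, at most 49 with IgG, at most 52 on replicates 1, 3 and 4 and 236 on replicate 2. CCNI, the cyclin I gene, reached 725 on replicate 2 from a control HuR mean of 118.5. These values describe a split between bright and dim arrays that the genes share, and the median over 816 named genes was -0.095 with 16 and -0.069 with 15 arrays.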

How the data were processed

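The members and the gene lists were chosen with earlier results of these data known. Groups and replicate numbers were taken from sample titles, and the design text calls replicates biological. The labels do not say whether they are separate cultures, so p-values measure the spread between these samples. Per the labels' protocols, recovered RNA was primed with oligo-dT, amplified and labelled for Illumina arrays.

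The deposited intensity is a linear bead summary per probe, with no scaling between arrays; the submitters' processing notes name GenomeStudio 2011.1. A detection p-value stands beside each, per the file headers. The deposited value table holds a score that behaves like a per-array z-score; 1 of its 16 columns (IgG IP, MIR100HG siRNA, replicate 1) correlated with its own log2 intensity at 0.0066 and was left out.

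Of 47231 probes 30113 had 1 gene, 8 several and 17110 are unnamed here; 30074 symbols were updated by gene identifier. Intensities were corrected and quantile normalized with neqc (limma 3.58.1, R 4.3.3, offset 16). Kept were 1438 probes detected (p under 0.01) in 4 or more arrays, and of these the brightest per gene, giving 1387 features. limma fitted 4 group means, with Benjamini-Hochberg adjustment over all 1387 and a threshold of 0.05. For bounds, a dim group's values were raised, array by array, to the lowest normalized value among detected probes (p under 0.01). Alternatives were other background corrections, scalings and filters, the deposited scores, array weights, a replicate block, the groups of a comparison alone and each array left out. Named besides the members were up to 4 relatives per list detected on at least 2 of 4 arrays of a group, and the 5 most similar genes. At most 11.0% of intensities were identical in any of the 120 pairs of arrays. The number of arrays limits precision. Figures were drawn with matplotlib 3.10.9.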

Additional observations from a re-analysis of the deposited data

Results flagged for a closer look

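HuR replicate 2 with MIR100HG siRNA was far above the other 3 arrays of its group for each of the 7 mRNAs, at an intensity of 207 for YWHAZ, 412 for CSNK1E, 350 for NUCKS1, 360 for KPNA4, 241 for TMED2, 435 for TMCO1 and 112 for C6orf62. Its gap to the nearest other array took up 0.886 to 0.983 of the group's range, above Dixon's 95% critical value for 4 samples. Replicate 4 of the control HuR IPs was far below the other 3 for CSNK1E, at 79 (0.833 of the range). Replicate 1 of the IgG IPs with control siRNA was far above the others for TMCO1, at 61 (0.857). Over 28 groups 9 such values were found, and 7 of the 9 come from a single array, HuR replicate 2 with MIR100HG siRNA. The 7 genes share their arrays and were chosen together, so the 28 groups are not independent. No number expected by chance is given for that reason.

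C6orf62 differed between the siRNAs in its HuR minus IgG difference, by -1.17 on the log2 scale, the 1 member for which that change passed the threshold over all 16 arrays. The gene was chosen on these values, and the call did not hold in 14 of the 16 fits that left out 1 array.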

How the results depend on the processing

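In HuR minus IgG with control siRNA the number of members called was 7, and 0 with no scaling between arrays and 0 with median centring (0.721% of all features called with each). In MIR100HG minus control siRNA in HuR IPs it was 7, and 0 with each of those scalings, 3 with the deposited scores (6.53% of features called), 3 with no filter on dim probes (0.0807%) and 4 when the groups of the comparison were fitted alone (5.84%). For the change of the HuR minus IgG difference it was 1, and 0 without background correction, with no scaling, with median centring, with the deposited scores, with no filter and with the replicate block, where at most 0.0742% of features were called. It was 3 when IgG and HuR arrays were quantile normalized separately (0.937%) and 7 with array weights (10.2%), or without HuR replicate 2 with MIR100HG siRNA combined with median centring or no scaling. Leaving out 1 array at a time gave 0 to 7. In the enrichment with MIR100HG siRNA and the siRNA difference in IgG IPs it was 0 under every alternative run. YWHAZ changed sign in the enrichment with MIR100HG siRNA, to -0.0046, without replicate 2 and with median centring, and TMCO1 in IgG IPs, to 0.095, without replicate 1 of the control IgG IPs (range -0.168 to 0.0951 over the arrays left out). Over 29 gene results and 834 recomputed values, 742 kept direction and side of the threshold, 63 lost the call and 27 gained it. Where the cause is not given in the report, it was not tested.

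The arrays showed no clear pairing by replicate number, though such correlations cannot exclude one. Of 24 same-number pairs across groups 4 had a correlation of deviations over 0.1 (range -0.159 to 0.259). In 14 of 48 comparisons an array correlated best with its own replicate number. With that number as a block the counts were 7, 0, 7, 0 and 0 for the 5 comparisons in the order given in the report, with the IgG comparison placed before the last. Without scaling the median of all features shifted from 0.076 to 0.27 in the enrichment with MIR100HG siRNA and from 0.0038 to 0.12 in the change of enrichment. Most probes at background limit these arrays to the brightest transcripts.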
